A study of Equus caballus with 4 samples.

Results

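The genes described here code for proteins of the sarcomere, namely those of the Z-disc, the M-band and the thin filament, for the proteins that assemble it and for desmin. They were chosen by gene name, from a list of 41 symbols that stand for 40 genes, as *KBTBD10* is an older symbol of *KLHL41*. Under these names 33 of the 40 genes had a probe on the array, and 32 of them were tested among 15614 genes or transcripts in all. *MYBPC1*, the gene of slow myosin-binding protein C, was set aside, since its probe was not well above background in either channel on any array. Another 7 genes are named only in the free-text description of a probe and are given apart.

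The cells were equine satellite cells (ESC), the muscle stem cells of the horse, taken from semitendinosus muscle and driven to form myotubes in culture. HMB (β-hydroxy-β-methylbutyrate), a metabolite of leucine, was added to the HMB-treated cells after 2 days in differentiation medium, and both these and the control cells, kept in that medium without HMB, were on their day 3 of differentiation after 24 h. The labels give the amount of HMB as 50 µg without a volume, while the methods give it in µM. RNA of both was compared on 4 two-colour arrays of 1 slide, the dye being Cy5 for HMB-treated and Cy3 for control cells each time. As the dyes were not exchanged on any array, the preference of a probe for a dye cannot be told apart from the treatment. The sources do not state which colt gave the cells of an array. The description field of the samples calls the treated cells GO-treated, whereas titles and source names say HMB, which was used.

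The sarcomere is the contractile unit of striated muscle. Its thin filaments are anchored in the Z-disc, a lattice of α-actinin and many smaller proteins, and its thick filaments are held together at mid-sarcomere by the myomesins of the M-band. In differentiating muscle cells these genes are switched on as myoblasts fuse into myotubes, and dedicated chaperones help myosin to fold while the filaments come into register.

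Values are log2 ratios of HMB-treated over control cells, so that a negative value stands for less mRNA with HMB. Where a gene had several tested probes the brightest represents it, errors are the SD of 4 arrays, and a gene was called at a limma adjusted *P* of at most 0.05 over all tested probes. Of the 32 sarcomere genes tested, 27 (84.4%) were lower in HMB-treated cells and 0 were higher, against 11.6% lower and 10.9% higher among all tested genes or transcripts, where 22.4% were called in either direction. With both channels required to be well above background, which excludes *SMYD1*, 26 of 31 were lower and 0 higher, against 11.1% and 10.3% of all genes tested in that way. The 5 genes without a call were *MYOZ3*, *TPM1*, *TPM2*, *TPM3* and *MYBPH*. At an unadjusted limma *P* under 0.05, 29 genes of the list were below 0 and 1 (*TPM3*) above it, against 2803 and 3118 of all 15614 tested genes or transcripts. The median of the 32 genes was -0.84, against 0.02 over all tested genes. On arrays 1 to 4 the median of the 32 was -0.45, -0.71, -0.75 and -1.08, while that of all tested genes lay between 0.01 and 0.03. Array 4 thus had the lowest values and array 1 the values nearest to 0. All 4 arrays gave a ratio below 0 for 29 of the 32 genes, against 21.4% of all tested genes. The RNA came from whole cultures, in which fewer myotubes and less of an mRNA per myotube cannot be told apart.

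**Figure D1:**
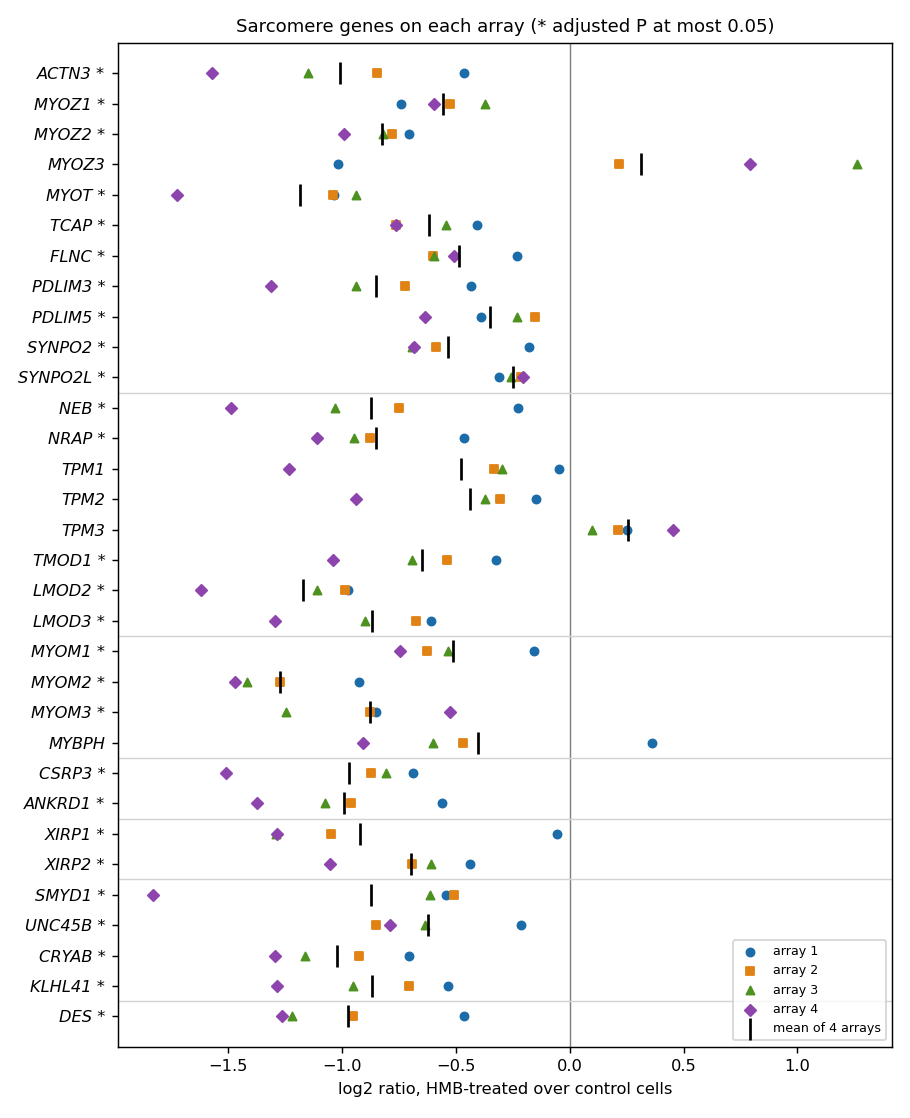
Log2 ratio of HMB-treated over control cells (horizontal axis) of the 32 tested sarcomere genes, 1 symbol for each of 4 arrays and a black bar for their mean, in the order of their roles. The points of the 27 genes with an asterisk (adjusted *P* at most 0.05) all lie left of 0.

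Called falls ran from -1.27 to -0.25, that is from 2.41-fold to 1.19-fold, with 5 genes lower by at least 2-fold. Just 80 of the 15614 genes or transcripts had a mean below the lowest of the list, *MYOM2*. The number of sarcomere genes called lower depended on the arrays used. It was 25 without array 1, 18 without array 2, 17 without array 3 and 25 without array 4, and the genes or transcripts called in all moved with it, from 3504 to 1398 without array 2 and 1524 without array 3. Of all tested genes or transcripts, 9.62%, 5.66%, 5.51% and 9.67% were lower without array 1, 2, 3 and 4. Without pairing the channels of an array 17 sarcomere genes were lower, against 5.4% of all tested genes. Without the filter on dim probes 10 of 33 were lower, against 4.67%. With a one-sample t-test under the same adjustment 1 of 32 was lower, against 1.46%. A core of 17 of the 27 genes remained called with any array left out.

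**Figure D2:**
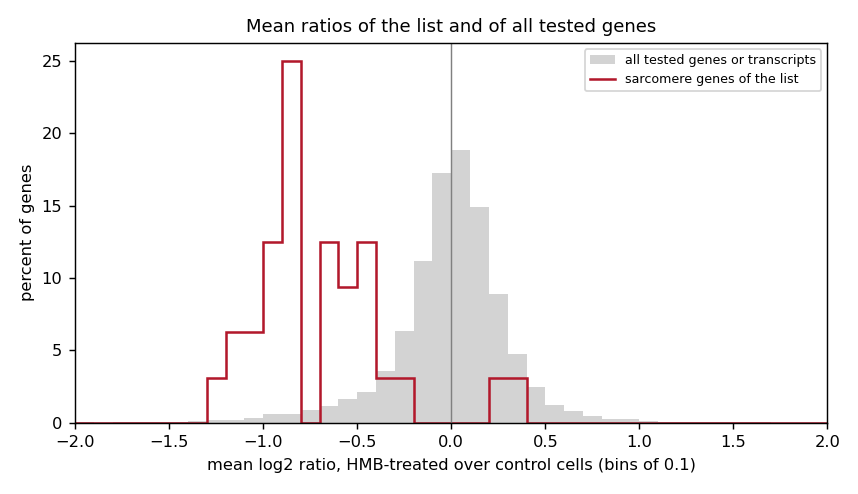
Percent of genes (vertical axis) by mean log2 ratio of HMB-treated over control cells in bins of 0.1 (horizontal axis), for all 15614 tested genes or transcripts (grey) and for the 32 sarcomere genes (red line). The grey bars centre near their median of 0.02, whereas most of the red line lies below -0.3, around its median of -0.84.

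In the Z-disc 10 of 11 tested genes were lower, with a median of -0.56. *ACTN3* codes for α-actinin-3, the actin cross-linker of fast fibres, and its ratios on arrays 1 to 4 were -0.46, -0.84, -1.15 and -1.57. All were below 0 and spread widely, with array 4 lowest. The mean was -1.01 ± 0.47, and HMB-treated cells held 49.7% of the control level (adjusted *P* = 0.0118). A second *ACTN3* probe, further upstream in the transcript, gave 0.06, -0.62, -0.75 and -0.75. It was thus near 0 on array 1 and below 0 on the others, with a mean of -0.52 ± 0.39 (adjusted *P* = 0.0482).

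The calsarcins tie calcineurin to α-actinin. *MYOZ2*, the form of slow and cardiac muscle, was at -0.71, -0.78, -0.82 and -0.99. The 4 values lay close together, and the processed intensities did not overlap, with 24000 to 26100 in control cells and 13000 to 14800 in HMB-treated cells. Several other genes of the list, such as *LMOD2*, *KLHL41* and *DES*, showed no overlap either. With a mean of -0.83 ± 0.12 (adjusted *P* = 0.00166), *MYOZ2* was the only gene of the list called under every alternative processing, 15 in number. Its mean was -0.57 without lowess normalisation. *MYOZ1*, the fast-fibre form, was also lower, with -0.74, -0.52, -0.37 and -0.60 and a mean of -0.56 ± 0.15 (adjusted *P* = 0.00632). *MYOZ3*, also of fast fibres, gave -1.02, 0.22, 1.26 and 0.79. Array 1 was far below 0 and the others above it, and the mean of 0.31 ± 0.99 was within the spread of the arrays (adjusted *P* = 0.538). Without array 3 the mean of *MYOZ3* was -0.0029.

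*MYOT* codes for myotilin, which bundles actin at the Z-disc. Its probe, shown because it gave the largest fall among the Z-disc genes, lies in coding sequence on chromosome 14 (chr14:37776992-37777051, minus strand, EquCab1).
MYOT: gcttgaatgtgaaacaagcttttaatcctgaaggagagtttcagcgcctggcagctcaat
The ratios of this probe were -1.04, -1.04, -0.94 and -1.73. Arrays 1 to 3 were close together and array 4 was lower. *MYOT* fell by 2.27-fold, with a mean of -1.19 ± 0.36 (adjusted *P* = 0.00398), and a second probe gave -1.07.

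*TCAP*, for the titin cap protein telethonin, was at -0.41, -0.76, -0.54 and -0.76, with array 1 nearest to 0. Its mean of -0.62 ± 0.18 (adjusted *P* = 0.00575) came nearer to 0, at -0.37, with normexp background correction and loess together. *PDLIM3*, for the α-actinin-binding protein ALP, gave -0.43, -0.72, -0.94 and -1.31. It was lower on each array, most on array 4, with a mean of -0.85 ± 0.37 (adjusted *P* = 0.0104). The other LIM protein, *PDLIM5* (ENH), fell less, to a mean of -0.35 ± 0.21 (adjusted *P* = 0.0402), and of its 3 probes 1 was not called (adjusted *P* = 0.0755).

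*FLNC*, the muscle filamin that links actin to the Z-disc and membrane, had a mean of -0.49 ± 0.17 (adjusted *P* = 0.0116). *SYNPO2*, for the actin-bundling myopodin, was represented by 5 probes shifted by single bases, all lower, with means between -0.54 and -0.49. Its relative *SYNPO2L* showed the smallest called fall of the list, at -0.31, -0.22, -0.26 and -0.21. These 4 values were the least spread of the 32 genes, at a mean of -0.25 ± 0.05 (adjusted *P* = 0.0298). Calls of these genes were among those lost when an array was left out. *FLNC* had an adjusted *P* of 0.0553 without array 2 and 0.0528 without array 3, and *SYNPO2* one of 0.0620 and 0.0641. *SYNPO2L* was not called without array 1, 2 or 3 (adjusted *P* 0.0620 to 0.124), nor *PDLIM5* without any of the 4 arrays in turn (adjusted *P* 0.0664 to 0.0981).

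Among the genes of the thin filament 5 of 8 were lower, with a median of -0.75, and the 3 others were the tropomyosins. *LMOD2* codes for leiomodin-2, which starts and lengthens actin filaments, and its ratios were -0.97, -0.99, -1.11 and -1.62. It was lower on every array, most on array 4, and fell to 44.3% of the control level with a mean of -1.17 ± 0.30 (adjusted *P* = 0.00277). *LMOD3*, a second leiomodin of skeletal muscle, gave -0.61, -0.68, -0.90 and -1.29. The order of the arrays was that of *LMOD2*, with a mean of -0.87 ± 0.31 (adjusted *P* = 0.00633).

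*NEB* codes for nebulin, the giant protein that runs along the thin filament, and it was at -0.23, -0.75, -1.03 and -1.49. The fall on array 1 was small and that on array 4 large, so that the mean of -0.87 ± 0.53 (adjusted *P* = 0.0231) had one of the wider spreads. Without array 2 or 3 it was no longer called (adjusted *P* = 0.0597 and 0.0814). *NRAP*, a nebulin-related protein of growing myofibrils, was more even, at -0.47, -0.88, -0.95 and -1.11 and a mean of -0.85 ± 0.28 (adjusted *P* = 0.00526). *TMOD1*, for the tropomodulin that caps the pointed end of the filament, gave -0.33, -0.54, -0.69 and -1.04. All arrays were below 0, and the mean of -0.65 ± 0.30 (adjusted *P* = 0.0141) lost its call without array 3 (adjusted *P* = 0.0542).

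The tropomyosins, the coiled coils that lie along actin and carry the troponins, were not called by their representative probes. *TPM1* gave -0.05, -0.33, -0.30 and -1.23. Array 4 alone was far below 0, the mean was -0.48 ± 0.52 (adjusted *P* = 0.113), and none of 3 probes was called. *TPM2* had the ratios -0.15, -0.31, -0.37 and -0.94, a similar order, with a mean of -0.44 ± 0.35 (adjusted *P* = 0.0567). When ratios were taken without lowess normalisation, the mean of *TPM1* was -0.10 and that of *TPM2* turned to 0.11 (adjusted *P* = 0.508). With an intensity trend and a robust prior *TPM2* was called lower (adjusted *P* = 0.0361), so its call and direction depend on the processing.

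The 3 probes of *TPM2*, each 60 bases long, are shown since they fell on both sides of the threshold although each was shifted from the next by a single base, starting at bases 875, 876 and 877 of the transcript. Capitals mark the 58 bases that all of them hold, read from chromosome 25 (EquCab1, plus strand).
TPM2 from base 875: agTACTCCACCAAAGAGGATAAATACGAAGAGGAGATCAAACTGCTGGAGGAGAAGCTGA
TPM2 from base 876: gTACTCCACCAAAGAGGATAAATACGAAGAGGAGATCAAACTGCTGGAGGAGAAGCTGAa
TPM2 from base 877: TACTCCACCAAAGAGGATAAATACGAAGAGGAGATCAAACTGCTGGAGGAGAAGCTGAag
Their means were -0.47, -0.44 and -0.47, with adjusted *P* values of 0.0499, 0.0567 and 0.0498. The outer probes were therefore called lower and the middle one, which was the brightest, was not, while their means differed by much less than the spread of the arrays.

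*TPM3*, for slow-fibre tropomyosin, was measured by 8 probes that differed by far more. The study lists *TPM3* among genes chosen on these arrays, so its values are not independent of that choice. The representative probe gave 0.25, 0.21, 0.10 and 0.45, above 0 on every array, with a mean of 0.25 ± 0.15 (adjusted *P* = 0.0571). Its neighbour, 59 bases further along the gene and the last of the 8, was higher in HMB-treated cells, with 0.36, 0.40, 0.34 and 0.63 and a mean of 0.43 ± 0.14 (adjusted *P* = 0.0116). Another pair of probes, 2148 bases upstream and nearer to the coding part, was lower. The first gave -0.80, -1.01, -0.67 and -0.74, with a mean of -0.80 ± 0.15 (adjusted *P* = 0.00211), and the second had a mean of -0.75 ± 0.08 (adjusted *P* = 0.00163). Every value of the far pair was thus above 0, and every value of the near pair below it. The far pair, the near pair and the coding probes described next are named after different transcript records, on sequence not placed on a chromosome. Whether they measure the same transcript was not tested.

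The difference between the far and the near pair was 1.04, 1.24, 0.95 and 1.26 on arrays 1 to 4. It was similar on all arrays, with a mean of 1.12 ± 0.15 or 2.18-fold. An exact two-sided test, made by reversing signs array by array, gave *P* = 0.125, the smallest it can give with 4 arrays. This contrast was chosen after the values were seen, and it ranged from 0.87 to 1.47 over 14 alternatives. In the coding part of the same gene 4 probes had means of -0.30, -0.02, -0.09 and -0.07, between those of the pairs, and just the first was called (adjusted *P* = 0.0307). The first and the second of these are shown because they share the 37 bases in capitals and yet received different calls.
TPM3 coding probe 1: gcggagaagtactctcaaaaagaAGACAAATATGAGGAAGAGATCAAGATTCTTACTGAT
TPM3 coding probe 2: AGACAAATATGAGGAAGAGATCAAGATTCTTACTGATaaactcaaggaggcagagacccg
The call of *TPM3* as 1 gene therefore depends on the probe. With the mean of all its tested probes it was -0.17 (adjusted *P* = 0.108), and without lowess normalisation the representative probe was at 0.61.

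**Figure D3:**
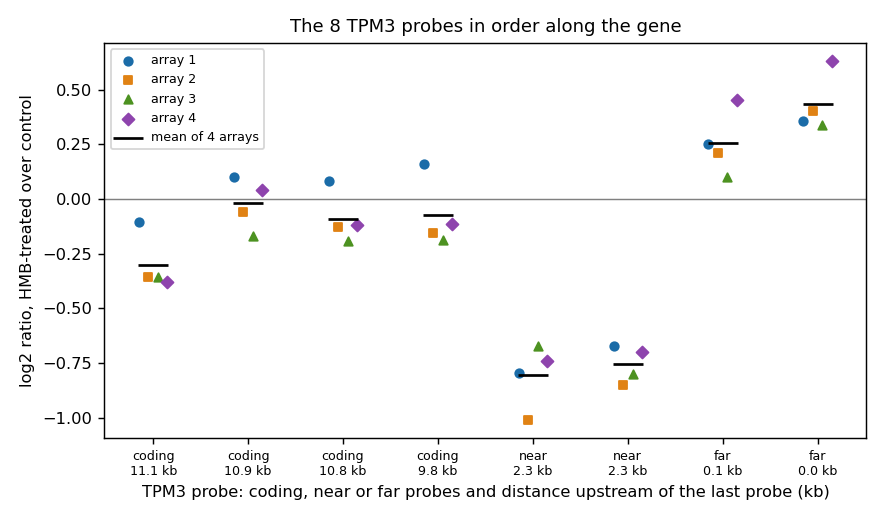
Log2 ratio of HMB-treated over control cells (vertical axis) of the 8 *TPM3* probes, in order along the gene with the distance upstream of the last probe in kb (horizontal axis), 1 symbol for each of 4 arrays and a black bar for their mean. Points of the near pair lie between -1.01 and -0.67, those of the far pair between 0.10 and 0.63, and those of the coding part between -0.38 and 0.16.

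At the M-band 3 of 4 tested genes were lower. *MYOM2* codes for M-protein, the myomesin of fast fibres, and *MYOM1* for myomesin-1, found in all fibres. Their probes are shown because the related genes differed in the size of their fall. Both lie within coding sequence, and capitals mark the longest run they share, 14 bases. The probe of *MYOM1* is on chromosome 8 (chr8:36632224-36632283) and that of *MYOM2* on chromosome 27 (chr27:37650454-37650513), both on the minus strand of EquCab1.
MYOM1: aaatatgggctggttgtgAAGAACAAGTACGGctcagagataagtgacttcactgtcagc
MYOM2: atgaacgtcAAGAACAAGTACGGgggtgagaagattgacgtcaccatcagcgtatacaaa
*MYOM2* was at -0.93, -1.27, -1.42 and -1.47. No array was near 0, and the processed intensities of 960 to 1130 in control cells and 348 to 583 in HMB-treated cells did not overlap. Its mean of -1.27 ± 0.24 was the lowest of the list, 41.4% of the control level (adjusted *P* = 0.0014).

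*MYOM1* gave -0.16, -0.63, -0.53 and -0.74. Array 1 was near 0 and the others were clearly below it, with a mean of -0.51 ± 0.25 (adjusted *P* = 0.0189) that was not called without array 2 or 3 (adjusted *P* = 0.0751 and 0.0697). *MYOM3*, another myomesin, was at -0.85, -0.88, -1.25 and -0.53. Here array 3 was lowest and array 4 nearest to 0, unlike in most genes of the list. Its mean was -0.88 ± 0.29 (adjusted *P* = 0.00558), and -0.57 with normexp and loess. *MYBPH*, for a myosin-binding protein of the thick filament, gave 0.36, -0.47, -0.60 and -0.91. Array 1 was above 0 and the others below it, and the mean of -0.40 ± 0.54 was not called (adjusted *P* = 0.18). Without array 1 *MYBPH* was called, at -0.66 (adjusted *P* = 0.0218), while without array 4 the mean was -0.24 (adjusted *P* = 0.432).

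Both tested genes of stretch-sensing proteins were lower. *CSRP3* codes for muscle LIM protein of the Z-disc, and it gave -0.69, -0.87, -0.81 and -1.51. Array 4 lay apart below the others, at a mean of -0.97 ± 0.37 (adjusted *P* = 0.00701). All 5 probes of *CSRP3*, shifted from each other by single bases, were lower, with means from -0.99 to -0.83. *ANKRD1*, for an ankyrin-repeat protein that binds titin and also enters the nucleus, was at -0.56, -0.96, -1.07 and -1.38. Processed intensities of 32600 to 43900 in control cells and 16900 to 22100 in HMB-treated cells did not overlap. The mean was -0.99 ± 0.34 (adjusted *P* = 0.00526), and -0.65 without lowess normalisation.

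The Xin proteins bind and stabilise actin where myofibrils meet the membrane, and both of their genes were lower. *XIRP1* gave -0.05, -1.05, -1.29 and -1.29. It was near 0 on array 1 and about equally low on the others, so that the mean of -0.92 ± 0.59 (adjusted *P* = 0.0264) was the most spread among the called genes but for *SMYD1*. Without array 1 its mean was -1.21, and without array 2, 3 or 4 it lost its call (adjusted *P* 0.0764 to 0.0918). *XIRP2* was at -0.44, -0.69, -0.61 and -1.05, below 0 on each array. The mean of *XIRP2* was -0.70 ± 0.26 (adjusted *P* = 0.0083), from the 1 of its 4 probes that could be tested.

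The 4 chaperones and assembly factors were called lower, *SMYD1* among them on weak signal. *CRYAB* codes for αB-crystallin, a small heat-shock protein that binds desmin and titin, and gave -0.71, -0.92, -1.16 and -1.30. With 45400 to 49000 in control cells and 19600 to 28700 in HMB-treated cells, its processed intensities did not overlap. The mean was -1.02 ± 0.26 (adjusted *P* = 0.00297), and -0.60 without lowess normalisation. The 5 probes of *CRYAB*, which overlap for most of their length, had means from -1.02 to -0.76, all called. *KLHL41*, for a Kelch protein that keeps nebulin stable, was at -0.54, -0.70, -0.95 and -1.29. Every array was below 0, with a mean of -0.87 ± 0.33 (adjusted *P* = 0.00713).

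*UNC45B*, the chaperone that folds the myosin head, gave -0.21, -0.85, -0.64 and -0.79. Array 1 was nearest to 0, and the mean of -0.62 ± 0.29 (adjusted *P* = 0.0144) was not called without array 2 or 3 (adjusted *P* = 0.0549 and 0.0539). *SMYD1*, a methyltransferase that works with UNC45B on myosin, was at -0.54, -0.51, -0.61 and -1.83. Arrays 1 to 3 were alike and array 4 was far lower. Its mean of -0.87 ± 0.64 (adjusted *P* = 0.0383) rested on weak signal, for the HMB-treated cells were well above background on arrays 1 to 3 but not on array 4, so that the ratio there is not exact. Without array 4 it was -0.56 (adjusted *P* = 0.00796), without array 1, 2 or 3 it was not called (adjusted *P* 0.0635 to 0.0811), and with normexp and loess it was -0.41.

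*DES* codes for desmin, the intermediate filament that ties neighbouring Z-discs together. Its probe spans an intron on chromosome 6 (chr6:8935739-8936002, plus strand, EquCab1) and is shown as that of a widely used muscle marker.
DES: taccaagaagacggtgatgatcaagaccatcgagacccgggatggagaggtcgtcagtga
It gave -0.47, -0.95, -1.22 and -1.26. The fall on array 1 was the smallest, and the mean of -0.98 ± 0.37 left 50.8% of the control level (adjusted *P* = 0.00683). Without lowess normalisation the mean of *DES* was -0.68.

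Among the 7 genes named only in a probe's description 6 were tested and 4 were lower, with a median of -0.64. *ACTN2*, for the α-actinin of all fibres, was at -0.28, -0.84, -0.97 and -0.96. Array 1 was nearest to 0, at a mean of -0.76 ± 0.33 (adjusted *P* = 0.0107). *MYBPC2*, for fast myosin-binding protein C, gave -0.70, -0.80, -0.61 and -1.01 and a mean of -0.78 ± 0.17 (adjusted *P* = 0.00309). Also lower were *ANKRD2*, a relative of *ANKRD1*, at -0.67 ± 0.33, and the tropomodulin *TMOD4*, at -0.60 ± 0.23. Titin, the spring that spans from Z-disc to M-band, was not called. The ratios of *TTN* were -0.23, -0.38, 0.00 and -0.65, at a mean of -0.31 ± 0.27 (adjusted *P* = 0.0854). *FHL1*, for a LIM protein that binds titin, had a mean of -0.24 ± 0.30 (adjusted *P* = 0.184), while *LDB3*, for the Z-disc protein ZASP, was not tested. With these genes 31 of 38 were lower.

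The arrays ranked alike in most of the sarcomere genes. Of the 29 genes below 0 on every array, 21 (72.4%) were lowest on array 4 and 23 (79.3%) nearest to 0 on array 1. Among the 3343 tested genes or transcripts below 0 on every array these shares were 50.4% and 39.7%, so that the order was in part that of the arrays as a whole. Probes of the same gene mostly shared a call. Of 12 genes with several tested probes, 9 had the same call for each, the others being *PDLIM5*, *TPM2* and *TPM3*. In *SYNPO2*, *CSRP3* and *CRYAB*, among others, the probes overlap for most of their length, so that a shared call there is no separate evidence. Among the 9 is *XIRP1*, whose second probe had signal well above background in HMB-treated cells on just 2 of 4 arrays, so that its ratios are not exact.

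Relatives of the listed genes, many of them expressed outside striated muscle too, were compared with them within each array. The 7 families compared, taken up after the values were seen, held 11 listed genes and 14 relatives. In 6 of the 7 the mean ratio of the listed genes was below that of their relatives on every array. An exact two-sided test of the kind used for *TPM3* cannot give less than *P* = 0.125 for a family, and it gave this value in each of the 6. The tropomodulin *TMOD1* was below its relatives *TMOD2* and *TMOD3* by a mean difference of -0.74 ± 0.38, and the relatives were not called, at a mean of 0.09. *LMOD2* and *LMOD3* were below *LMOD1*, the smooth muscle form, by -0.68 ± 0.09. The leiomodin difference was even across arrays and the tropomodulin difference was not, the latter being largest on array 4.

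For *CSRP3* the difference from *CSRP1* and *CSRP2* was -0.66 ± 0.21, and *CSRP1* was itself lower, at -0.30 (adjusted *P* = 0.0267). *ACTN3* differed by -0.56 ± 0.24 from *ACTN1* and *ACTN4*, of which *ACTN1* was itself lower, at -0.51 (adjusted *P* = 0.0143). *KLHL40* and *KLHL31*, Kelch genes that are also of striated muscle, were themselves lower. *KLHL41* differed from them by -0.24 ± 0.18, and by -0.01 without lowess normalisation and -0.42 with normexp and loess. The mean of *PDLIM3* and *PDLIM5* differed by -0.32 ± 0.13 from that of 4 relatives, and by -0.47 without lowess normalisation. Of these *PDLIM1*, at -0.58 (adjusted *P* = 0.0134), and *PDLIM2*, at -0.65 (adjusted *P* = 0.0165), were themselves lower, and both means were below that of *PDLIM5*. In the tropomyosins the difference from *TPM4* was -0.01 ± 0.28 (exact *P* = 0.875), and -0.26 without lowess normalisation. It averages unlike genes, for *TPM1* differed by -0.27, *TPM2* by -0.23 and the representative probe of *TPM3* by 0.46.

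**Figure D4:**
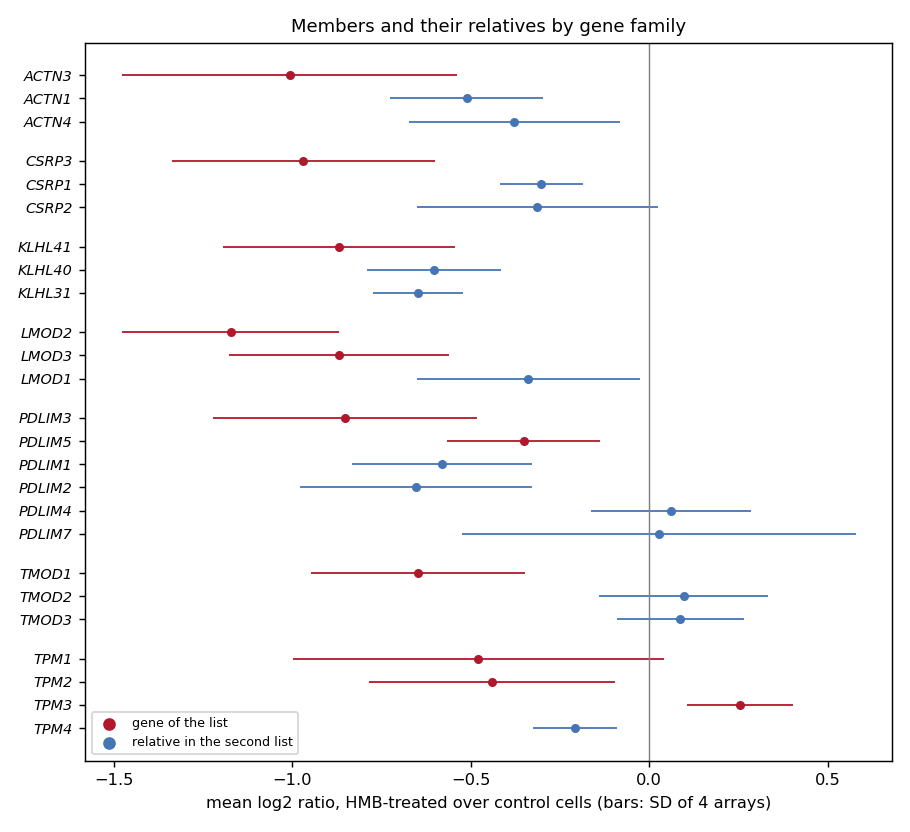
Mean log2 ratio of HMB-treated over control cells (horizontal axis, bars for the SD of 4 arrays) of genes of the list (red) and their relatives (blue) in 7 gene families. Red points lie left of the blue ones in most families, whereas in the tropomyosins *TPM3* lies right of *TPM4* and in the PDLIM family *PDLIM5* lies right of *PDLIM1* and *PDLIM2*.

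A second list held 67 other genes of the sarcomere and the costamere, which anchors myofibrils to the membrane. Of 57 tested 29 (50.9%) were lower and 2 (3.51%) higher, against 11.6% and 10.9% of all tested genes. The median of the 57 was -0.34, against the -0.84 of the first list. Where both channels had to be well above background, 27 of 54 were lower and 2 higher, against 11.1% and 10.3% of all genes. That excludes *PPP1R12B* and *SORBS2*, whose HMB-treated cells passed on 2 and 3 of 4 arrays. *HSPB2*, for a small heat-shock protein of muscle, was lowest at -1.12 ± 0.25 (adjusted *P* = 0.00194). *TRIM55*, for a titin-binding ubiquitin ligase, was at -0.92 ± 0.17 (adjusted *P* = 0.00185). The higher genes were *FHL2*, for a LIM protein of heart and other tissues, at 0.34 ± 0.17, and *FHOD1*, for a formin that assembles actin, at 0.48 ± 0.18. The proteins of focal adhesions *VCL*, *TLN1* and *ZYX* and the capping proteins *CAPZA1*, *CAPZA2* and *CAPZB* were not called. The count of lower genes was 19 without array 2 and 13 without array 3, and that of higher genes was 1 with any array left out and 6 without lowess normalisation. Of all tested genes 5.66% were lower without array 2 and 5.51% without array 3. The share of all genes higher was 3.3% to 7.92% with an array left out and 10.4% without lowess. Without pairing the channels 19 were lower, without the filter on dim probes 9 and with the t-test 1, and 0 were higher in all of these. In these settings 5.4%, 4.67% and 1.46% of all tested genes were lower, and 2.32%, 3.56% and 1.17% higher. *SVIL*, *TRIM63*, *ITGB1BP2* and *CFL2* of this list were also among the genes the study chose on these arrays. The study also measured *TRIM63* and *CFL2* by RT-qPCR, and it reports that those changes overlapped the ones on the arrays.

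Markers of myogenic cells moved with the sarcomere genes. Of 17 tested markers of myogenic cells and myotubes, *DES* among them, 16 (94.1%) were lower, against 11.6% of all tested genes. The median of the 17 was -0.86, with array medians of -0.43, -0.80, -1.04 and -1.17. The order of the arrays was that of the sarcomere genes. *MYH8*, for perinatal myosin, fell most, at -1.93 ± 0.36 (adjusted *P* = 0.00113), and *MYOG*, for the differentiation factor myogenin, by less, at -0.42 ± 0.20 (adjusted *P* = 0.0222). The satellite cell factors *PAX7* and *PAX3* were not tested, as neither was well above background on all arrays in either channel. *MYF5* and *MEF2C* of these markers were also chosen by the study on these arrays. For *MYF5* the study also reports RT-qPCR, with a change that overlapped the one on the arrays. The count of lower myogenic markers was 11 without array 2, 10 without array 3, 12 without pairing the channels, 5 without the filter on dim probes and 0 with the t-test. In the same order, 5.66%, 5.51%, 5.4%, 4.67% and 1.46% of all tested genes were lower.

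Of 5 markers of cycling cells 3 were higher (*MKI67*, *CCNB1* and *CCNA2*), against 10.9% of all tested genes. The median of the 5 was 0.70, with array medians of 0.87, 0.70, 0.24 and 0.87. The count of higher markers was 2 to 4 with an array left out, where 3.3% to 7.92% of all tested genes were higher. It was 0 without pairing the channels, without the filter on dim probes or with the t-test, against 2.32%, 3.56% and 1.17%. Of 9 fibroblast markers 2 (22.2%) were higher, against 10.9% of all tested genes. These were *PDGFRA* at 1.53 ± 0.47 (adjusted *P* = 0.00358) and *FAP* at 0.42 ± 0.18 (adjusted *P* = 0.0185). The control signal of *PDGFRA* was dim, at 35.2 to 41.8, though well above background on each array. The collagens *COL1A1*, *COL1A2* and *COL3A1* were not called. The median of the fibroblast markers was 0.01, with array medians of 0.33, -0.19, -0.18 and -0.08, but without lowess normalisation it was 0.52 and 5 were higher. Without array 1, 2 or 3, or without the filter, just 1 was higher, and 0 with the t-test. Without array 1, 1 marker was also lower. None of 5 endothelial and 4 adipocyte markers could be tested, as their probes were not well above background on all arrays in the same channel. The part of these markers in the fall of the sarcomere genes was not tested.

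**Figure D5:**
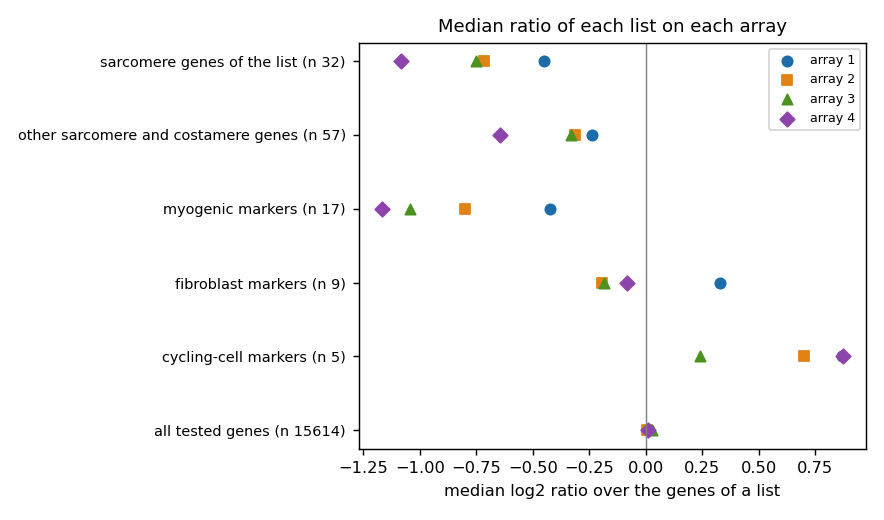
Median log2 ratio of HMB-treated over control cells (horizontal axis) over the genes of each list (vertical axis, with the number tested), 1 symbol for each of 4 arrays. The sarcomere genes and the myogenic markers lie left of 0 on every array with array 4 lowest, the cycling-cell markers right of 0, and all tested genes near 0.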

How the data were processed

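Total RNA of HMB-treated (Cy5) and control (Cy3) ESC was hybridised by the authors to 4 arrays. The deposited intensity values are spot signals with background subtracted and dyes normalised by Feature Extraction (10.10.1.1 per the file headers, another version than the methods name). The deposited log10 ratios were made by the authors from these intensities with linear and lowess normalisation, and were multiplied by 3.32 to the log2 scale. Control spots (1417 on each array) and spots marked as outliers (11, 17, 32 and 15 on arrays 1 to 4) were left out, and spots of a probe were averaged. Of 43603 probes, 27384 were tested, those with a channel that was well above background on each of the 4 arrays and a value on 3 or more. The number of arrays limits the precision.

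The mean ratio of each probe was set against 0 in limma 3.58.1 under R 4.3.3, by lmFit and eBayes with an intercept alone. Benjamini-Hochberg adjustment took in every probe tested, and the threshold was 0.05. The array holds both channels, so it serves as the pair of each comparison. The procedure was tested on simulated data. Single contrasts were tested by exact sign reversal over arrays (8 distinct outcomes). Tables and plots were made with Python 3.11.15, pandas 2.3.3, numpy 2.4.6 and matplotlib 3.10.9.

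Genes were taken by the gene names in the files, which are those of the array design, and 7 through probe descriptions, added after the files were seen. The members and lists were chosen with earlier results of these data known. All genes of the list are named, others by their list, size or family. Some genes of the lists are not reported here. Coordinates are those of the files (EquCab1). Whether a probe is coding was judged from its open reading frame and its place in the transcript. Promoter and protein sequences were not at hand here and are not described.

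Alternatives were normexp (offset 50) with loess, ratios without lowess centred on the array median, a one-sample t-test with the same adjustment (the methods section names no test), an intensity trend with robust prior, unpaired channels, no filter, a filter on both channels, the outlier spots kept, values of the deposited summary table, a minimum of 1.3-fold, the mean of a gene's probes, and each array left out (at least 2 values, same probes).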

Additional observations from a re-analysis of the deposited data

Results flagged for a closer look

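For each gene of the lists, each further probe of the listed genes and the median of the list, 172 sets of 4 arrays in all, the array farthest from the others was compared with the 95% critical value of Dixon's test. In 12 sets it lay beyond that value, which chance passes in about 1 of 20, and 7 of the 12 were low values on array 4. Sets from probes of the same gene are not independent, and *MYOT* and *CSRP3* are each counted more than once among these low values.

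*MYOT*, for myotilin, was at -1.73 on array 4, while the other arrays lay between -1.04 and -0.94, and its second probe was at -1.48 against -0.96 to -0.90. *MYOT* remained called without that array, at -1.01 (adjusted *P* = 0.0034). *SMYD1*, for the methyltransferase of myosin assembly, was at -1.83 on array 4 and between -0.61 and -0.51 on the others, but its signal in HMB-treated cells was not well above background on array 4, so that this ratio is not exact. Further probes of *CSRP3* were at -1.40 and -1.51 on array 4, with the other arrays at -0.74 to -0.67 and at -0.88 to -0.79. The smooth muscle genes *CNN1*, for calponin, and *ACTA2*, for smooth muscle actin, were also low there, at -1.10 and -1.34.

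High values on array 1 came from the second *ACTN3* probe (0.061), the first coding probe of *TPM3* (-0.11), the adhesion gene *VCL* (0.066) and the leukocyte marker *PTPRC* (0.47). *TPM4*, a tropomyosin found in many cell types, was at -0.032 on array 3 and between -0.28 and -0.24 on the others.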

How the results depend on the processing

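Counts of genes called lower moved with the test and the filter more than with the normalisation. For genes called higher the normalisation could matter more. In the second list 6 were higher without lowess, and 0 with the t-test or without the filter, against 2. The number of sarcomere genes called lower was 1 (*MYOZ2*) with a one-sample t-test, 10 of 33 without a filter on dim probes and 17 without pairing the channels of an array (no replicate block). All genes called numbered 411, 2059 and 1206 in these settings and 2133 with a minimum of 1.3-fold, against 3504. Fewer calls without the filter go with 24998 genes or transcripts tested. One sarcomere gene, *TPM3*, was called higher (a count of 1) with normexp and loess, without lowess and with an intensity trend. With that trend *TPM2* was also called lower (adjusted *P* = 0.0361), and 28 genes of the list were lower. With each array left out in turn, 17 to 25 sarcomere genes were lower, 0 higher, and 1398 to 2747 genes were called. For single genes of the list, 392 of 479 values kept direction and side of the threshold, 79 lost and 5 gained a call, and 3 changed sign, none of them called. These were *TPM2* at 0.11 without lowess, *TPM3* at -0.17 as the mean of all its probes, and *MYOZ3*, which ran from -0.0029 without array 3 to 0.76 without array 1. The cause of these changes was not tested. The median of the list was -0.58 with normexp and loess and -0.69 without lowess, where 27 genes were still lower. Of the families, the tropomyosin difference ran from -0.26 without lowess to 0.09 without array 4, with -0.13 with normexp and loess, -0.12 without array 1 and 0.03 without array 3. The 6 others stayed below 0 in each of 14 settings. The dimmest gene, *SMYD1*, is limited by signal over background and was not tested where both channels had to be above it.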

Other observations

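Several sarcomere genes lie close together on the chromosomes, and pairs with probes within 200 kb were looked up after the values were seen. There were 6 such pairs among the list and its second list. The probes of *CRYAB* and *HSPB2*, small heat-shock genes on opposite strands of chromosome 7, are 5.34 kb apart, and both genes were lower, at -1.02 and -1.12. On chromosome 1 those of *MYOZ1* and *SYNPO2L* are 10.3 kb apart, at -0.56 and -0.25, both lower. *MYOZ2* and *SYNPO2* on chromosome 2, 114 kb apart, were also both lower, as were *PDLIM3* and *SORBS2* on chromosome 27, 70.1 kb apart. *SORBS2* and *SPEG* had HMB-treated signal well above background on 3 of 4 arrays. *DES* was lower while *SPEG*, 58.4 kb away on chromosome 6, was not called, at -0.25. Neither *TPM2* nor *TLN1*, 10.6 kb apart on chromosome 25, was called.

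Markers of smooth and cardiac muscle were measured too. Of 7 smooth muscle markers 1 (14.3%), *MYH11*, was called lower, near the 11.6% of all tested genes, and the median was -0.39. The call of *MYH11* rests on dim signal, as the HMB-treated cells were not well above background on array 4, and it was lost without array 1, 2 or 3. With both channels required to be above background 6 markers were tested and 0 were lower. Without array 4 the count of lower smooth muscle markers was 2 and the median was -0.21. The count was 0 without pairing the channels, without the filter on dim probes or with the t-test. Of 5 tested cardiac markers *MYH6*, *TNNI3* and *TNNT2* (60%) were lower, against 11.6% of all tested genes, and *NPPA* and *NPPB* were not called. The count of lower cardiac markers was 2 without array 3, without pairing the channels or without the filter on dim probes, and 1 with the t-test. Among 3 tested leukocyte markers 1 (33.3%), *PTPRC*, was higher, at 0.28 ± 0.13 (adjusted *P* = 0.0374), against 10.9% of all tested genes. *CD14* and *CD68* were not called, and with any array left out none of the 3 was called.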
